A study of Mus musculus with 82 samples.

Results

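The genes described here are 9 markers of microglia, the resident macrophages of the brain: Cx3cr1, Csf1r, C1qa, C1qb, C1qc, P2ry12, Tmem119, Ctss and Tyrobp. They were chosen by symbol and not by a cut on their values, but with earlier results of these data known. All 9 were found among the 27515 genes of the deposited count table. Their levels were followed over all 82 libraries of the series. Each library is a hexagon of tissue, with a largest radius of 40 µm, cut by laser capture from cresyl violet stained sections of the suprachiasmatic nucleus (SCN), the seat of the brain's main circadian clock. The mice were C57BL/6 aged 8 weeks, with no treatment or genotype contrast. The hexagons followed a grid and were not picked by a marker, and the RNA was made into libraries with Smart-seq2, which copies whole transcripts from tiny amounts of RNA, and tagmented with Tn5. Every hexagon has 3 coordinates in the labels. Neither their unit nor the direction of the axes is stated, and animal, sex and collection time are not named.

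The anterior-posterior coordinate runs from 47 to 431 in steps of 48 and puts the hexagons in 9 sections, numbered here from the lowest value, with 4, 6, 12, 14, 12, 14, 13, 6 and 1 hexagons. Hexagons may share an animal, so the p-values over hexagons given below are too small and reflect no more than hexagon-to-hexagon spread. Total counts ran from 11905 to 2843366 per hexagon (median 542267.5), and 5 hexagons had a total below the median divided by 3. CPM, the unit of level used here, is a hexagon's count scaled to a common library size after TMM correction for library composition. Scaled by library total alone, without TMM, a count of 3 corresponded to 2.08 CPM in a hexagon of 1440064 counts. It corresponded to 25.3 CPM in a hexagon of 118442 counts and to 252 CPM in the shallowest, of 11905 counts. A value of 0 thus does not have the same meaning in every hexagon. Each hexagon is a small bulk sample in which fewer microglia and less RNA per microglial cell cannot be told apart.

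Microglia tile the brain with spaced cell bodies and branched processes, survey synapses and clear debris. Their survival depends on the receptor Csf1r, whose ligands are Csf1 and Il34, and neurons signal to them through the chemokine Cx3cl1, which binds Cx3cr1. P2ry12, a receptor for extracellular nucleotides, guides their processes, Tmem119 is a membrane protein that marks resident microglia, and C1qa, C1qb and C1qc encode the chains of C1q, the recognition molecule of the classical complement pathway. Ctss is a lysosomal cysteine protease of antigen presentation, and Tyrobp (DAP12) is the signalling adaptor of receptors such as Trem2.

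The promoters of 5 members were in the RefSeq promoter table (GRCm38.p6; 250 bases before to 50 after the start of the gene): C1qb, C1qc, Ctss, P2ry12 and Cx3cr1. All 5 are printed because these genes varied together over hexagons, as given further on. Capitals mark GGAAGT or its reverse complement ACTTCC, the core read by ETS factors such as PU.1, the product of Spi1 and a master regulator of the macrophage lineage.

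C1qb, chr4:136886151-136886450, minus strand: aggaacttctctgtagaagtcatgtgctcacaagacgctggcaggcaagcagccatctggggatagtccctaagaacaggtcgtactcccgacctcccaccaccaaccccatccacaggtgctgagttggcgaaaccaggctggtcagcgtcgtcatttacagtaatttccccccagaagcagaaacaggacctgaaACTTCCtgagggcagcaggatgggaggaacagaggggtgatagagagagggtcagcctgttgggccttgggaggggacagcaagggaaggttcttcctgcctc

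C1qc, chr4:136892865-136893164, minus strand: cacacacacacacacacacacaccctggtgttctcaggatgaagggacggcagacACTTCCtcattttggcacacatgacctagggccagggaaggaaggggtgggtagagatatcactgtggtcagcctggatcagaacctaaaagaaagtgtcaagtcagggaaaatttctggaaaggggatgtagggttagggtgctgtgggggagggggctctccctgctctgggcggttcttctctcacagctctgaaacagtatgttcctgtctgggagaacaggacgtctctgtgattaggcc

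Ctss, chr3:95526536-95526835, plus strand: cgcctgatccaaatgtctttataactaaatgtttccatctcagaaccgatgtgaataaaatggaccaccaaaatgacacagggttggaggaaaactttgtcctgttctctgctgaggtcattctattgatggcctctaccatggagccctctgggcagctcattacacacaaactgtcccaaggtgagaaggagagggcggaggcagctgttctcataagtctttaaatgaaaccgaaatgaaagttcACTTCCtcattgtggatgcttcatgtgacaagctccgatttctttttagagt

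P2ry12, chr3:59262936-59263235, minus strand: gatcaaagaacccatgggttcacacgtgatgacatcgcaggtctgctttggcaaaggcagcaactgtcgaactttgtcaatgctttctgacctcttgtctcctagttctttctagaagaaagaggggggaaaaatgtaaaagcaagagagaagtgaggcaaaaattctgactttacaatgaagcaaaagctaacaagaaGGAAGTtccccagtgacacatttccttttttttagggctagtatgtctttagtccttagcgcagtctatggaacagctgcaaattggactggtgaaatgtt

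Cx3cr1, chr9:120068247-120068546, minus strand: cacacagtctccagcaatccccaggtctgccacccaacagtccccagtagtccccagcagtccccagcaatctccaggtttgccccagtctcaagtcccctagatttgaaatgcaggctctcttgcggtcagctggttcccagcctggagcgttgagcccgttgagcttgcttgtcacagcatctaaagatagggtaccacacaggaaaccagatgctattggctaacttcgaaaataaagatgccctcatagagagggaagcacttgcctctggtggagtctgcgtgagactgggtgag

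The core was found, on either strand, in 4 of the 5 members' promoters, and the window of Cx3cr1 did not hold these letters. Of all 32851 promoters in the table, 7809 (23.8%) held it. Its first base, as printed, lay 53 bases before the start in C1qb, 195 in C1qc, 2 in Ctss and 51 in P2ry12, so that in Ctss the core spans the start. The longer GAGGAAGT, or its reverse complement, was in the windows of C1qc and Ctss and in 1052 of the 32851 promoters. These are letter matches and not measured binding sites. Spi1 itself had 52 counts in all 82 hexagons, with 3 or more in 5, and was below the filter for testing.

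In GENCODE M21 on GRCm38 the 3 C1q genes stand side by side on the minus strand of chromosome 4. C1qb spans 136880129 to 136886187, C1qc 136889804 to 136893065 and C1qa 136895917 to 136898803, with gaps of 3617 and 2852 bases. P2ry12 (chromosome 3, 59216272 to 59262871, minus) lies within the span of Med12l on the other strand, and Csf1r (chromosome 18, 61100598 to 61132149, plus) overlaps Hmgxb3 on the other strand. Whether the counting used strand is not given in the sources used here, so reads in these overlaps could belong to either gene. P2ry12 had 0 counts in 30 hexagons that held 3 or more of Med12l, and Csf1r had 0 in 23 hexagons that held 3 or more of Hmgxb3. Over 82 hexagons the correlation of log2(CPM + 1) was 0.146 for P2ry12 with Med12l and -0.0252 for Csf1r with Hmgxb3. Cx3cr1 (chromosome 9, 119901616 to 120069879, minus) shares exonic sequence with the antisense gene Gm33858. The remaining members are Tmem119 (chromosome 5, 113793729 to 113800516, minus), Ctss (chromosome 3, 95526786 to 95556403, plus) and Tyrobp (chromosome 7, 30413760 to 30417585, plus).

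The 9 markers were present in some hexagons and nearly absent in others. Their summed level ran from 0 to 1051 CPM, with a median of 127 and a mean of 208 ± 226 CPM (SD, n = 82 hexagons). The 10 hexagons with the highest sums held 39.9% of the total over all hexagons, and the lower 41 held 11.3%. With 3 or more counts as the mark of presence, all 9 members were present in 17 hexagons, at least 7 in 31, 2 or fewer in 24, and none in 5. Without the 5 shallow libraries, 28 of 77 hexagons held at least 7 and 4 held none. The shallowest library, section 4 replicate 4 with 11905 counts, was among the 5 with none, and its only member count was 1 of Csf1r. Section 3 replicate 8 had no count of any member in 1440064 counts. For each gene a count of 0 allows up to 2.08 CPM there (scaled by library total, without TMM), by counting error alone.

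Spread over hexagons was wide compared with other genes of like abundance. The coefficient of variation (SD over mean of CPM) lay between 1.19 and 1.77 for the 9 members. Among the 5214 tested genes with mean CPM in the members' range, its median was 0.847, with 0.567 and 1.44 as the 5th and 95th percentiles.

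**Figure D1:**
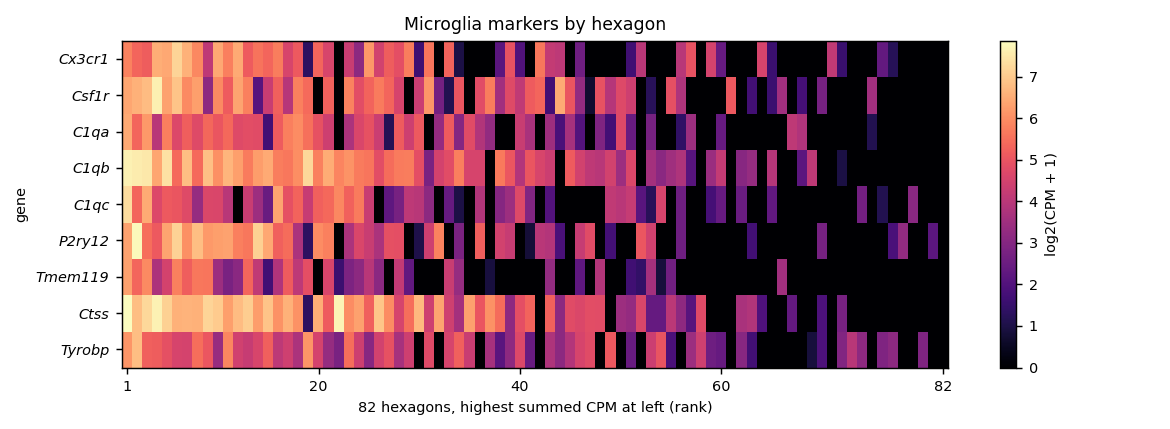
Level of each of the 9 markers (rows) as log2(CPM + 1) in each of the 82 hexagons (columns), ordered by their summed CPM with the highest at left. Bright columns are hexagons in which most markers were high, and black cells are counts of 0, which fill most of the right side.

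Compared per length, by the deposited RPKM, the most abundant members were C1qb with 33.8 ± 42.4 and Ctss with 32.7 ± 39.4 RPKM (mean ± SD, n = 82). Tyrobp followed with 23.4 ± 28.5, C1qa with 13.9 ± 17.6, P2ry12 with 9.36 ± 15.5 and C1qc with 7.14 ± 12.1 RPKM. Csf1r (5.43 ± 7.18), Cx3cr1 (4.56 ± 6.33) and Tmem119 (3.84 ± 6.77 RPKM) were lowest. Every neighbouring pair in this order differed by less than the SD over hexagons, and the order itself was not tested. Ctss had the highest RPKM of the 9 in 25 hexagons, C1qb in 23 and Tyrobp in 20, and the other 6 members led in 1 to 4 hexagons each.

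The surface receptors were each detected in a part of the hexagons. Cx3cr1 had 1205 counts in all, with a lowest value of 0, a median of 4.23 and a highest of 144 CPM, and 3 or more counts in 40 hexagons. Csf1r ran from 0 to 197 CPM with a median of 13.5 and reached 3 counts in 47 hexagons. P2ry12 ran from 0 to 222 CPM with a median of 4.24 and reached 3 counts in 39. For all 3 receptors the mean (21.0, 26.4 and 24.2 CPM) exceeded the median, because a minority of hexagons held high values. Tmem119 was the sparsest member, with 550 counts, a median of 0 and a highest value of 78.4 CPM, and it reached 3 counts in 29 hexagons.

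Among the C1q chains, C1qb was detected most widely: 2018 counts, 3 or more in 59 hexagons, a median of 21.4 and a highest value of 204 CPM. C1qa had a median of 6.77 and a highest value of 86.5 CPM, with 3 or more counts in 43 hexagons, and C1qc a median of 4.46 and a highest value of 161 CPM, with 3 or more in 39. In the 18 hexagons with 10 or more counts of each chain, the RPKM of C1qb was 1.86 times that of C1qa in the median and ranged from 0.704 to 5.44 times. C1qb was the higher of the pair in 14 of the 18. C1qc stood at 0.395 times C1qa in the median, ranged from 0.192 to 1.28, and exceeded C1qa in 3. The protein chains assemble in equal numbers, and the transcript levels per length were unequal in most of these hexagons.

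The protease Ctss and the membrane adaptor Tyrobp were, with C1qb, the most widely found members. Ctss had 2776 counts, the most of the 9, with 3 or more in 56 hexagons, a median of 23.9 and a highest value of 232 CPM. Tyrobp had 949 counts, with at least 1 in 62 hexagons and at least 3 in 53, with a median of 9.71 and a highest value of 111 CPM.

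The highest hexagon was section 7 replicate 12, at dorsal-ventral coordinate 716 and medial-lateral coordinate 1414, with 1055026 counts. It held Ctss at 232, C1qb at 204, C1qc at 161, C1qa at 86.5, Csf1r at 83.5, P2ry12 at 80.4, Tmem119 at 78.4, Tyrobp at 69.2 and Cx3cr1 at 56.0 CPM. It was the top hexagon for Ctss, all 3 C1q chains and Tmem119, but not for Cx3cr1, Csf1r, P2ry12 or Tyrobp. Section 4 replicate 14 came next with 887 CPM in sum, from a shallow library of 118442 counts, and held the highest P2ry12 (222 CPM) and Tyrobp (111 CPM). The lone hexagon of section 9 held the highest Csf1r (197 CPM) with Ctss at 200 CPM, but C1qa at 14.7 and Tmem119 at 12.4 CPM. Section 2 replicate 1 held the highest Cx3cr1, at 144 CPM, with P2ry12 at 140 and Csf1r at 119 CPM, and C1qb at 42.1 CPM.

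A few hexagons held some members without the others. In section 7 replicate 11, with 500432 counts, Ctss reached 206 CPM, C1qc 58.9 and C1qb 56.9, whereas Cx3cr1, Csf1r, C1qa and P2ry12 were at 0. Of other microglia genes in this hexagon, Laptm5 stood at 45.1 and Aif1 at 21.6 CPM. In section 2 replicate 4, with 685680 counts, C1qb reached 150, Tyrobp 69.1, C1qa 45.1 and Csf1r 42.1 CPM, whereas Cx3cr1, P2ry12 and Ctss had 1 count each. Of the markers of border-associated macrophages, Mrc1, Cd163, Lyve1, Pf4, F13a1 and Cbr2 were at 0 in both hexagons. The sum of all 12 listed markers was 0 CPM in section 7 replicate 11 and 7.51 CPM in section 2 replicate 4. In section 7 replicate 11 the listed monocyte, neutrophil and lymphocyte genes summed to 35.3 CPM (median over all hexagons 1.85). Erythrocyte genes summed to 2279 CPM there (median over all hexagons 29.3). In section 2 replicate 4 these sums were 0 and 19.5 CPM. The part of blood cells in the members' levels in these hexagons was not tested. These 2 hexagons were singled out after their values were seen.

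**Figure D2:**
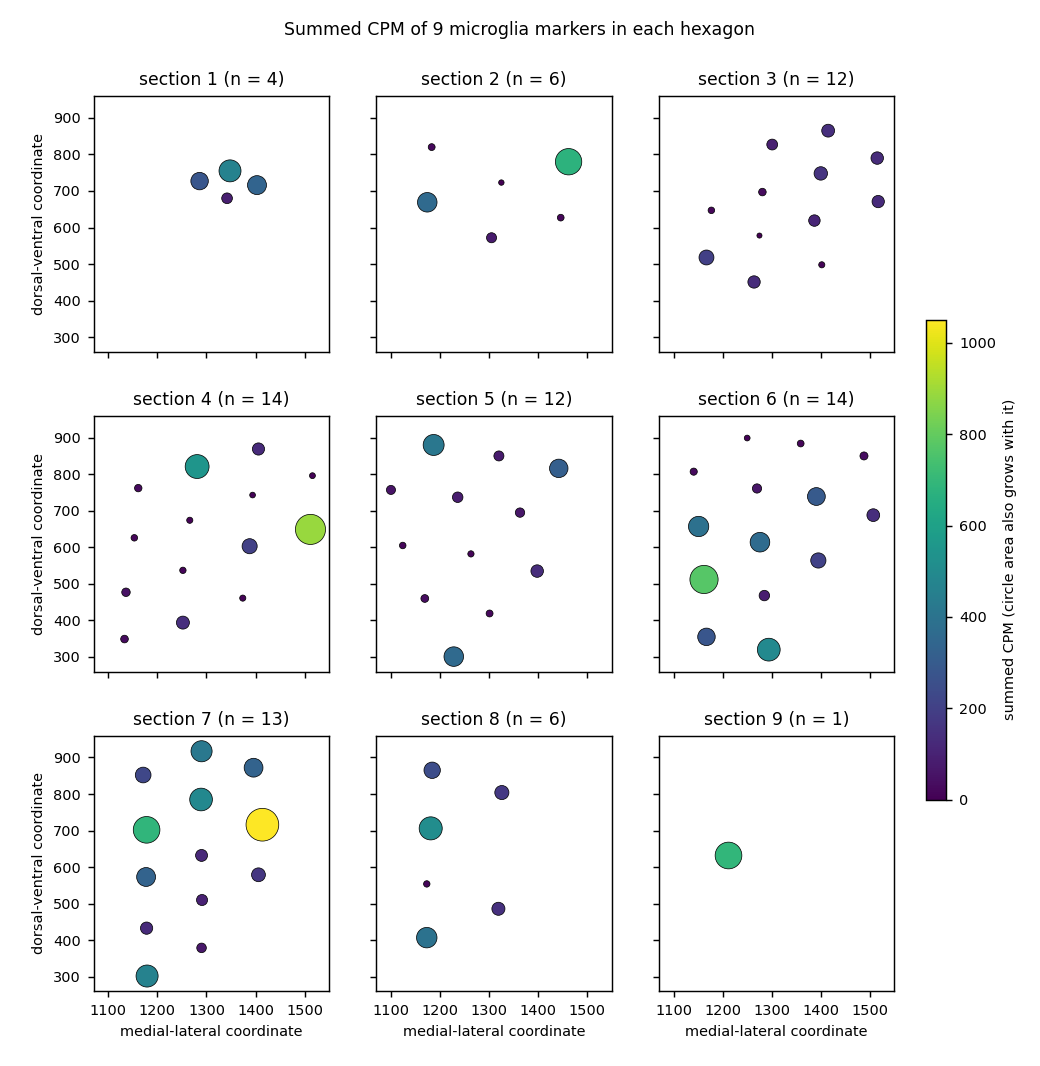
Summed CPM of the 9 markers in each hexagon, drawn at its medial-lateral (x) and dorsal-ventral (y) coordinate, with 1 panel per section; the coordinates have no stated unit, and both the area and the colour of a circle grow with the sum. High and low hexagons lie beside each other in most sections, for example in section 4, where sums ran from 6.54 to 887 CPM.

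The first spatial question was whether the markers rise or fall along the dorsal-ventral or the medial-lateral axis within sections. None of the 9 members passed on either axis in edgeR's quasi-likelihood test (section as a factor, Benjamini-Hochberg adjusted p under 0.05 over 11469 genes). Of all genes tested, 0.793% passed on the dorsal-ventral axis and 1.38% on the medial-lateral axis. At an unadjusted p under 0.05 the count of members was also 0 on both axes, beside 8.46% and 11.7% of all genes. Slopes are log2 changes per 100 coordinate units, and the coordinates span 301 to 917 dorsal-ventrally and 1100 to 1517 medial-laterally.

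With the hexagons divided by rank on the dorsal-ventral coordinate into 3 sets, the summed markers averaged 174 ± 189 CPM in the 27 hexagons with the lowest values (SD), 252 ± 282 in the 28 middle hexagons and 196 ± 193 in the 27 highest. The 3 ranges overlapped almost wholly, from 0 to 774, 3.60 to 1051 and 6.54 to 674 CPM. The largest dorsal-ventral slope of a member was that of Tmem119, 0.23 (SE 0.20; 95% interval -0.17 to 0.62; adjusted p = 0.895 by edgeR), and it was positive in 7 of the 8 sections with more than 1 hexagon. The lowest was that of Tyrobp, -0.12 (SE 0.15; interval -0.43 to 0.19). The slopes of the receptors were 0.08 for Cx3cr1, 0.08 for Csf1r and 0.03 for P2ry12, and those of C1qa, C1qb and C1qc were -0.07, -0.06 and -0.09. Ctss had the narrowest interval, from -0.27 to 0.31 around a slope of 0.02. Slopes within these intervals are not excluded for the gene concerned, and no smallest detectable slope was worked out.

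Medial-laterally the intervals were wider. Of the 9 slopes, 8 were above 0, with a median of 0.14 (median over all tested genes -0.0044), and each interval included 0. C1qc had the highest slope, 0.37 (SE 0.26; 95% interval -0.15 to 0.89; edgeR adjusted p = 0.656), followed by Ctss with 0.30 (SE 0.25; interval -0.20 to 0.80; adjusted p = 0.730). P2ry12 stood at 0.25, Tyrobp at 0.22, C1qa at 0.14, C1qb at 0.11, Csf1r at 0.03, Tmem119 at 0.02 and Cx3cr1 at -0.02. Leaving out the 5 shallow libraries turned Csf1r, C1qb, P2ry12, Tmem119 and Tyrobp negative on this axis, with Tmem119 at -0.45. With 3 such sets on this coordinate the summed markers averaged 250 ± 235, 148 ± 164 and 228 ± 264 CPM from the lowest to the highest.

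A peak or trough inside a section would escape a slope, so both coordinates, their squares and their product were also tested together. None of the 9 members passed this 5-term edgeR test, at the adjusted threshold or at an unadjusted p under 0.05, and the members' adjusted p-values ran from 0.847 to 1.00. Of all tested genes, 2.03% passed. Neighbouring hexagons were only loosely alike: the mean log2(CPM + 1) of the members in a hexagon and in the nearest hexagon of its section (67.4 to 161 units away, median 129) correlated with r = 0.241 over 81 hexagons. After centring within sections r was 0.0909.

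**Figure D3:**
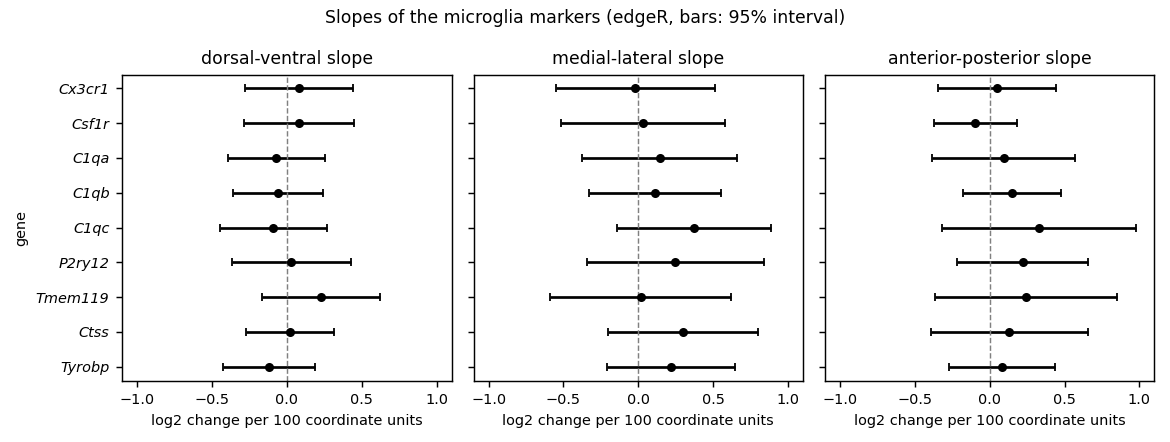
Slope of each marker along the 3 axes as log2 change per 100 coordinate units (points), with 95% intervals from edgeR (bars) and a dashed line at 0. All 27 intervals include 0, and the widest is that of C1qc along the anterior-posterior axis, from -0.32 to 0.98.

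The other spatial question was whether the markers differ among sections. The summed level was highest in section 7, with 352 ± 280 CPM (SD, n = 13 hexagons; lowest 66.1, median 330, highest 1051), and lowest in section 3, with 94.8 ± 64.5 CPM (n = 12; lowest 0, median 117, highest 198). Section 4 had a mean of 149 ± 257 but a median of 31.1 CPM (n = 14), since 2 hexagons at 548 and 887 CPM stood above the other 12. Section 1 held 281, 461, 89.1 and 335 CPM in its 4 hexagons, and section 8 averaged 247 ± 179 CPM (n = 6). Sections 2, 5 and 6 averaged 192 ± 271, 132 ± 145 and 227 ± 223 CPM. The ranges of sections 1 to 8 all overlapped.

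Counted by hexagon, at least 7 members were present in 9 of 13 hexagons of section 7 and in 2 of 14 of section 4. No more than 2 were present in 9 of 14 hexagons of section 4, the shallowest library among them, and in none of section 7. The 2 sections differ in depth, with 17639264 counts in all in section 7 and 6294932 in section 4. A cut of 3 counts is thus a lower level in section 7, and the part of depth in these counts was not tested. In edgeR's test of all section terms together, none of the 9 members passed, beside 3.59% of all tested genes. At an unadjusted p under 0.05, C1qc (p = 0.0133, adjusted 0.179) and Ctss (p = 0.0372, adjusted 0.307) passed, as did 1603 of the 11469 genes. C1qc averaged 29.8 ± 43.2 CPM in section 7 and 24.8 ± 28.7 in section 6 against 2.91 ± 3.65 in section 8 and 3.91 ± 7.39 in section 3. Ctss averaged 83.2 ± 75.8 CPM in section 7, 80.1 ± 54.8 in section 1 and 73.7 ± 38.5 in section 8, and 18.9 ± 19.9 in section 3. The adjusted p of C1qc was 0.0445 when genes of low counts were also tested, the only such call of a member under any alternative.

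Members did not share the order of the sections. P2ry12 was highest in section 8, at 46.6 ± 45.2 CPM (n = 6), where C1qc was lowest. Tmem119 averaged 17.4 ± 21.7 CPM in section 7 and 3.86 ± 4.45 in section 1, where Cx3cr1 and Csf1r had their highest means among sections 1 to 8 (36.9 ± 37.1 and 36.7 ± 37.0 CPM). None of these orders was tested beyond the section test above, and the SDs are as large as most of the differences. Sections accounted for 6.16% (Csf1r) to 25.7% (C1qb) of the variance of log2(CPM + 1) among hexagons, with a median over all genes of 10.5%.

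**Figure D4:**
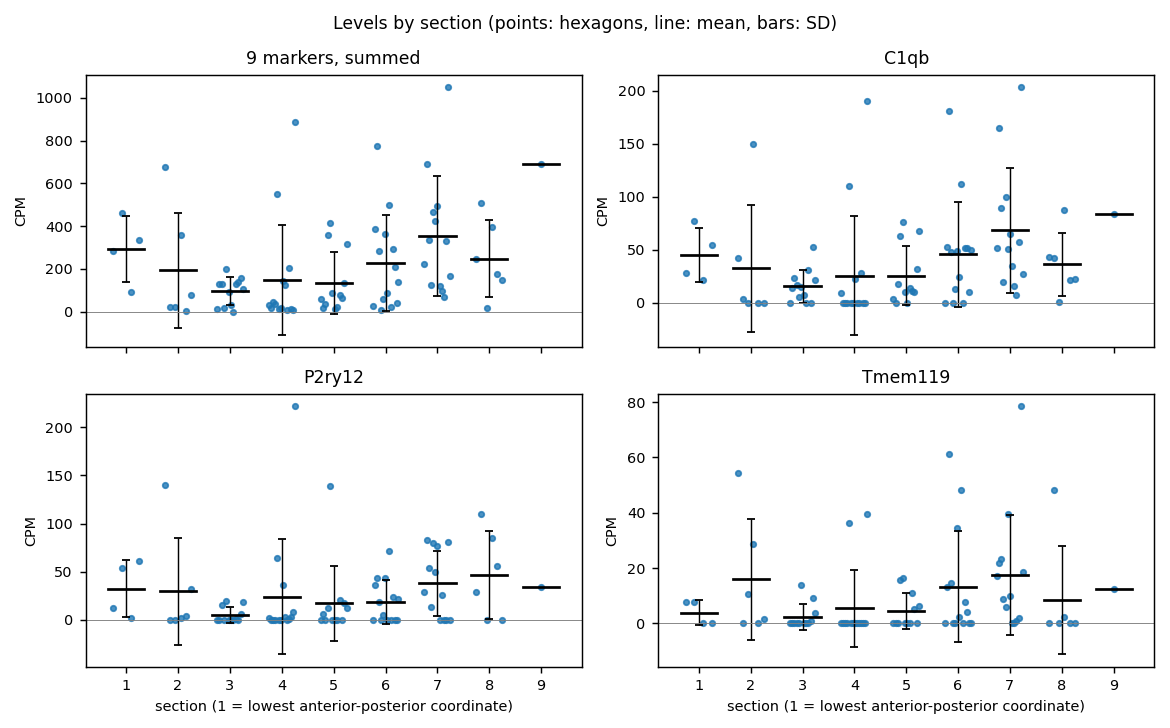
CPM by section for the sum of the 9 markers, C1qb, P2ry12 and Tmem119; points are hexagons, horizontal lines section means and bars SD (section 9 has 1 hexagon and no SD; bars reach below 0 where the SD exceeds the mean). Values overlap between sections 1 to 8 in each panel.

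Along the anterior-posterior axis, with counts summed per section over the 8 sections of 4 or more hexagons, no member passed edgeR's test, at the adjusted threshold or at an unadjusted p under 0.05. Of all tested genes 0.244% and 16.7% did. C1qc had the highest slope, 0.33 per 100 units (SE 0.30; 95% interval -0.32 to 0.98; adjusted p = 0.636), and Csf1r the lowest, -0.10 (SE 0.13; interval -0.38 to 0.18; adjusted p = 0.758). The slope of Ctss was 0.13 (SE 0.23; interval -0.39 to 0.66) over 8 sections and 0.77 (SE 0.14; interval 0.46 to 1.08; adjusted p = 0.0512) without section 1, whose 4 hexagons held 122, 108, 0 and 91.1 CPM of Ctss. That section decides the size of the Ctss value.

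The members varied together over hexagons. The 36 pairwise correlations of log2(CPM + 1) over 82 hexagons were all above 0, with a median of 0.562, from 0.359 for Csf1r with Tyrobp to 0.725 for C1qb with Ctss. Of the C1q genes, the outer C1qa and C1qb reached 0.705. The adjacent pairs reached 0.694 (C1qb with C1qc) and 0.584 (C1qa with C1qc). With the unlinked Tmem119, C1qa correlated at 0.695. The receptors Cx3cr1 and P2ry12 reached 0.668. Centred within sections the median was 0.544, and without the shallow libraries 0.556. C1qb followed the mean of the other 8 most closely (0.830) and Tyrobp least (0.621). The points share hexagons and library depth. With the log10 total count, the mean of the members correlated at 0.0518 and the number of members with 3 or more counts at 0.231, and the part of depth in the shared variation was not tested. Of the 29 hexagons with 3 or more counts of Tmem119, 28 held 3 or more of both C1qa and C1qb, and of the 39 with P2ry12, 37 held Ctss.

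Among the 11460 tested genes outside the members, the 10 whose log2(CPM + 1) followed the members' mean most closely over 82 hexagons were led by Selplg, a glycoprotein ligand of selectins that microglia express, with r = 0.868. Next came Laptm5, a lysosomal membrane protein of blood-lineage cells (0.823), Fcgr3, a low-affinity receptor for immunoglobulin G (0.689), Fcrls (0.674), the lectin Siglech (0.650) and Trem2, the lipid receptor that signals through Tyrobp (0.644). Mpeg1, the pore-forming perforin-2 (0.604), Unc93b1, a carrier of endosomal Toll-like receptors (0.576) and the organic anion transporter Slco2b1 (0.554) were also among the 10. The median r of all these genes was 0.0563 and the 99th percentile 0.287. Between 8 and 9 of the same 10 genes were found under each of 6 alternative measures of likeness. Selplg had a median of 3.21 and a highest value of 111 CPM, and Laptm5 6.78 and 118 CPM. Both were at 0 in many of the hexagons with low marker levels, as the plot of likeness shows.

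Of a list of 35 other microglia genes, 20 passed the filter. Their median r with the members was 0.504, and 14 of the 20 exceeded 0.4, beside the median of 0.0563 over all genes. Aif1 (Iba1), a calcium-binding protein, had r = 0.487. Sall1, a transcription factor that keeps microglial identity, had r = 0.112 and was detected in 42 hexagons. On the 5 spatial tests, Unc93b1 was the only gene of the list that passed, for section differences (edgeR adjusted p = 0.00992, and 1.00 with the description letter as a factor). With that letter as a factor 0 of all 11469 genes passed the section test. Median slopes were -0.04 dorsal-ventrally, 0.20 medial-laterally and 0.23 anterior-posteriorly, with 9, 13 and 16 of 20 above 0, and the medians over all genes were 0.0026, -0.0044 and 0.0050.

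The ligands of the receptors had low correlations with the members. Cx3cl1, made by neurons, was at 210 ± 88.0 CPM (SD, n = 82), was detected in 81 hexagons and had r = 0.151 with the members. Csf1 averaged 14.6 ± 15.0 CPM with r = -0.0656, and Il34 17.0 ± 18.8 CPM with r = 0.135. Cd200, a neuronal glycoprotein that restrains microglia, averaged 422 ± 107 CPM with r = -0.0139. Of 17 ligands and partners listed, 10 were tested. Medial-laterally Cd47, the protective signal against phagocytosis, fell by 0.23 per 100 units on the log2 scale (SE 0.04, edgeR adjusted p = 8.64e-04), and Cst3, cystatin C, an inhibitor of cathepsins such as Ctss, rose by 0.19 (SE 0.04, adjusted p = 0.00503). Both also passed the 5-term test (adjusted p = 0.00198 and 0.00330). Cx3cl1 and Cst3 passed the section test (0.0118 and 0.00626). With the letter that opens each hexagon's description label as a factor, which follows the sections in large part, only the 5-term call of Cst3 among these remained (adjusted p = 0.0451). The section test then called 0 of all 11469 genes, so the loss of section calls is not particular to Cx3cl1 and Cst3. The medial-lateral call of Cst3 was also lost without section 7.

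**Figure D5:**
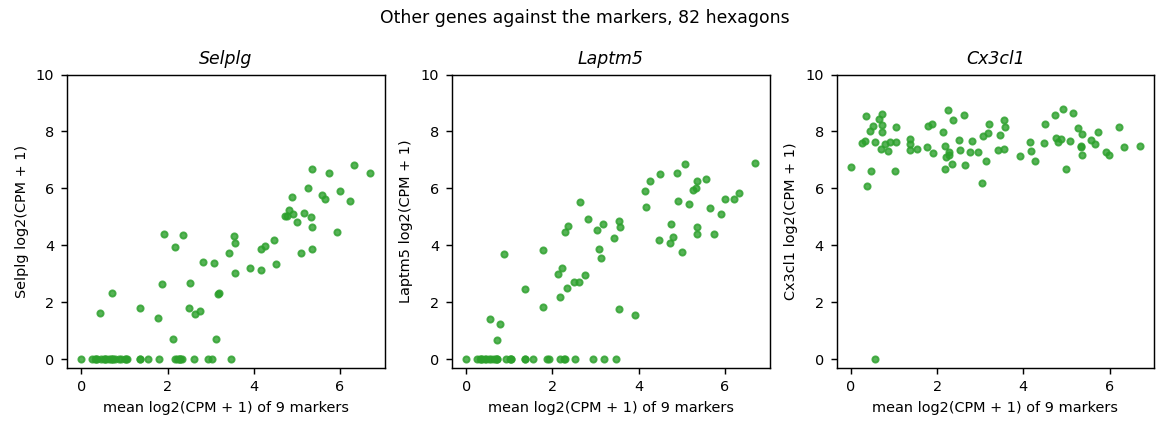
log2(CPM + 1) of Selplg, Laptm5 and Cx3cl1 (y) against the mean log2(CPM + 1) of the 9 markers (x), with 1 point per hexagon (n = 82). Selplg (r = 0.868) and Laptm5 (r = 0.823) climb with the markers, while Cx3cl1 (r = 0.151) holds a similar level across their range.

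Other complement genes were apart from C1q. Of 16 listed, 9 were tested and none passed on any of the 5 spatial tests. C3, the central component, had 42 counts in 5 hexagons. C4b, the C1s substrate, averaged 25.8 ± 24.6 CPM with r = -0.0106. Among 21 genes of activated microglia, 11 were tested. Ctsb rose medial-laterally by 0.16 per 100 units (SE 0.05, edgeR adjusted p = 0.0415), and Apoe, Spp1, Ctsb, B2m and H2-D1 passed the section test, genes that astrocytes, neurons or vessels also express. None of these calls held with the description letter as a factor, and that of Ctsb on the medial-lateral axis held in 5 of 14 alternatives. In that letter fit 0 of all 11469 genes passed the section test, so the loss of the section calls is not particular to these genes. A single gene of the 11 had an r with the members above 0.4.

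Border macrophages of the brain share Csf1r, Cx3cr1, Ctss, Tyrobp and the C1q genes with microglia. Of their 12 listed markers, 1 (Dab2, r = 0.00382) passed the filter. Mrc1 was detected in 6 hexagons and Cd163 in 22, and Mrc1, Cd163, Lyve1, Pf4, F13a1 and Cbr2 together had no count in 50 hexagons, including 10 of the 17 with all 9 members. Over all 82 hexagons their sum reached at most 85.5 CPM, with a median of 0, and correlated with the members at 0.168. In the rest of the list, Dab2 was detected in 59 hexagons, Stab1 in 38, Maf in 35, Ms4a6c in 8, Ms4a7 in 5 and Cd209f in 2. All 12 markers together had a count in 76 hexagons, with a median sum of 22.6 and a highest of 245 CPM. That sum correlated with the members at 0.187. None of 12 monocyte, neutrophil and lymphocyte genes passed the filter. Together they had a count in 46 hexagons, with a median sum of 1.85 and a highest of 124 CPM. Cd79a was the most widely detected of them, in 26 hexagons, and Ms4a1 had no count in any hexagon. Summed levels of other cell types correlated with the members at -0.157 for neurons, 0.210 for astrocytes, 0.187 for oligodendrocytes, 0.265 for endothelial cells and 0.230 for mural cells, against 0.849 for the other microglia genes. The part of these cell types in the members' levels was not tested.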

How the data were processed

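The authors deposited whole-number counts per gene, and the deposited RPKM table equals those counts divided by gene length and library total (largest relative deviation 5.28e-15). The build GRCm38 and the tools bcl2fastq 2 and STAR are named in the submitters' processing notes, with no role stated. The sources used here do not give the counter, its handling of strand or the gene annotation. Symbols came from the RPKM table, or for 455 gene IDs from a reference table, and 5 stayed without. The 11469 genes that reached 10 counts in at least 10 libraries were fitted with edgeR 4.0.16 (R 4.3.3, TMM scaling, robust quasi-likelihood) and adjusted by Benjamini-Hochberg. Section and the other coordinate were covariates, and the hexagon of section 9 carried no weight in the 2 slopes within sections. The anterior-posterior fit left it out and had no covariate. Fits were tested on simulated data. Correlations used log2(CPM + 1) and carry no p, since hexagons are not independent. Named genes were the 9 members, the 10 genes most like them, genes of the other lists that passed a test (at most 4 per list and axis) and defining markers, and further list genes were named after their values were seen. The members and lists were chosen with earlier results of these data known. Alternatives were library-size scaling, no filter, no shallow libraries, no highest hexagon, the letter that opens each description label (read as a library set, an inference), DESeq2 1.42.0, and each section left out. Replicate numbers follow accession order and pair nothing. Some genes that these rules name are not reported here.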

Additional observations from a re-analysis of the deposited data

Results flagged for a closer look

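In 30 groups, each the values of 1 member or of their sum in section 1, 2 or 8 (4 or 6 hexagons), 8 held a hexagon farther from its nearest neighbour than Dixon's criterion allows. The criterion flags about 1 group in 20 by chance only where values are normally distributed. These are CPM with many values of 0, as for Tmem119, at 0 in 4 of the 6 hexagons of section 8. That rate therefore does not hold here, and 8 of 30 cannot be read as an excess. The members also share hexagons. Section 2 replicate 1 stood above the other 5 hexagons in 4 members: Cx3cr1 at 144 CPM (next 15.1), Csf1r at 119 CPM (next 42.1), P2ry12 at 140 CPM (next 31.9) and Ctss at 94.8 CPM (next 23.5). Section 2 replicate 4 stood above the others in C1qb, at 150 CPM (next 42.1), and Tyrobp, at 69.1 CPM (next 22.8). Both hexagons of section 2 were therefore high, in different members. Section 1 replicate 3 had the highest Tyrobp of its section, 32.8 CPM (next 22.2), and the lowest summed level of all 9 members there. Section 8 replicate 2 held Tmem119 at 48.3 CPM (next 2.29).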

How the results depend on the processing

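None of the 9 members passed a spatial test under any alternative run, except C1qc for section differences with no filter on low counts (edgeR adjusted p = 0.0445, 1 member called). Their other adjusted p-values ran from 0.0512 (Ctss, anterior-posterior, without section 1) to 1.00. The count of all genes past the threshold moved more. With no filter it was 799 (dorsal-ventral), 912 (medial-lateral), 106 (anterior-posterior), 4313 (sections) and 3538 (5-term), against 91, 158, 28, 412 and 233, with 21396 genes tested. DESeq2 gave 152, 346, 446, 810 and 387. With the description letter as a factor the counts were 14 (medial-lateral), 0 (sections, with 460 genes at an unadjusted p under 0.05) and 140 (5-term), and the anterior-posterior fit over hexagons gave 337. Leaving out each section gave 47 (without section 5) to 138 (without section 8) dorsal-ventrally, 31 (without section 7) to 187 (without section 8) medial-laterally, 1 (without section 7) to 79 (without section 8) anterior-posteriorly and 85 (without section 6) to 279 (without section 8) on the 5 terms. Member slopes, none past the threshold, changed sign in 13 of 162 other settings and in 24 of 216 fits without a section. Without the 5 shallow libraries C1qb became 0.0080 dorsal-ventrally, and medial-laterally Csf1r became -0.12, C1qb -0.17, P2ry12 -0.15, Tmem119 -0.45 and Tyrobp -0.16. Without the highest hexagon Csf1r became -0.032 and Tmem119 -0.13 medial-laterally. With the description letter Cx3cr1 became 0.030, C1qb -0.059, Tmem119 -0.11 and Tyrobp -0.13 on that axis. Csf1r became 0.19 anterior-posteriorly over hexagons. With sections left out, dorsal-ventral slopes ran from -0.049 to 0.19 (Cx3cr1), -0.018 to 0.22 (Csf1r), -0.13 to 0.022 (C1qa), -0.12 to 0.069 (C1qb), -0.20 to 0.17 (P2ry12) and -0.066 to 0.13 (Ctss). Medial-lateral slopes ran from -0.15 to 0.078 (Cx3cr1), -0.16 to 0.19 (Csf1r), -0.046 to 0.21 (C1qb), -0.064 to 0.44 (P2ry12) and -0.19 to 0.20 (Tmem119). Anterior-posterior slopes ran from -0.031 to 0.30 (Cx3cr1), -0.16 to 0.066 (Csf1r), -0.039 to 0.30 (C1qa) and -0.026 to 0.31 (Tyrobp). The cause of these changes was not tested. The median pairwise r of the members ran from 0.544 to 0.585 over 6 alternatives added after seeing the data. Depth limits detection: scaled by library total without TMM, a count of 3 equalled 25.3 CPM in the hexagon of 118442 counts. In the shallowest hexagon, of 11905 counts, it equalled 252 CPM. No paired analysis was possible because replicate numbers only follow accession order and sections share no animal in the labels.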
